A study of Mus musculus with 4 samples.

Results

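The genes described here encode the transcription factors of sterol and lipid synthesis, Srebf1, Srebf2 and Mlxipl, and the endoplasmic reticulum proteins Insig2 and Scap, which hold or escort the sterol regulatory element binding proteins (SREBPs). They were found by gene symbol, taking every probe set whose only annotated gene was 1 of these 5. That gave 8 probe sets of the 22626 used, or 5 of 12393 genes. The genes were selected by name with results of these 4 arrays known, among them the Srebf1 level of mouse 3, so levels and differences between mice are described and carry no test.

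Liver total RNA came from 4 male C57BL/6 mice labelled ABCA1-TG, killed at 5 to 6 months of age on the NIH36 diet, with 1 biotin-labelled array each. ABCA1 moves cholesterol and phospholipid out of cells to apolipoprotein A-I, and the transgene overexpresses it. All 4 samples also carry an altered LDL receptor background, given as -/- in the series title and as +/- in the sample descriptions, and the sources used here do not settle which holds. The labels do not give the promoter or the species of the transgene. The stated design sets transgenic against wild-type liver, but wild-type arrays were not analysed here, so every difference below is between transgenic mice. The samples are labelled biological replicates 1 to 4 and are called mouse 1 to mouse 4, taken as 1 animal each. A value is the deposited signal intensity of a probe set, in arbitrary linear units, or its log2. Probe sets bind with different strength, so the signal of a probe set is used to find others of like brightness and to pick 1 for a gene, not to say which gene has more mRNA.

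SREBPs are made as membrane proteins of the endoplasmic reticulum, where Scap binds them and, when sterols are plentiful, Insig proteins hold the complex in place. When sterols fall, Scap carries the SREBP to the Golgi, where proteases free the part that enters the nucleus. SREBP-2, the product of Srebf2, mainly drives cholesterol synthesis, and SREBP-1c, the main liver product of Srebf1, mainly drives fatty acid synthesis under insulin and the oxysterol receptor LXR. Mlxipl encodes ChREBP, which turns on glycolytic and lipogenic genes when glucose metabolites rise, with Mlx as its partner. The liver transcript of Insig2 is known to be lowered by insulin, and Insig1, the other family member, is itself an SREBP target and was not analysed here. The arrays measured mRNA and give no view of protein cleavage, which sets SREBP activity.

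The promoter sequences of both SREBP genes are shown because each carries a documented type of control element that ties these regulators to each other or to LXR. They are from RefSeq (build GRCm38.p6), read 5′ to 3′ along the gene, and end at the base before the annotated start. The Srebf1 window, chr11:60210472-60210721 on the minus strand, lies before 1 of 3 annotated starts. Capitals mark a match to the direct repeat with a spacer of any letters that LXR binds with RXR, on the strand opposite to the gene, with its first base at position -182 from the start.

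Srebf1: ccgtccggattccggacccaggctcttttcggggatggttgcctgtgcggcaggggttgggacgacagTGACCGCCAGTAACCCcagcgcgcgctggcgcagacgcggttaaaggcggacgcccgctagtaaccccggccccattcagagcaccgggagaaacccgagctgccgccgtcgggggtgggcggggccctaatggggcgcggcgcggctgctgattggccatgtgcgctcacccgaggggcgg

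The Srebf2 window is chr15:82147019-82147268 on the plus strand, before its only annotated start. Capitals mark TCACCCCA, the core of a sterol regulatory element, with its first base at position -162.

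Srebf2: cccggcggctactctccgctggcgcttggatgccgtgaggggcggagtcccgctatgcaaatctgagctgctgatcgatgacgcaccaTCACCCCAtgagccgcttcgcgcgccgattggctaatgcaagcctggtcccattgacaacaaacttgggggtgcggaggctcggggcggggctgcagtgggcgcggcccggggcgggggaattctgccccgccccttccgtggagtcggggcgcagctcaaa

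Stretches of a target of each kind are set beside them. The Fasn stretch, chr11:120824717-120824797 on the minus strand, holds the same direct repeat with other spacer letters, and the Hmgcs1 stretch, chr13:119690174-119690261 on the plus strand, holds the same sterol element core. Fasn encodes fatty acid synthase and Hmgcs1 the cytosolic HMG-CoA synthase of the mevalonate pathway.

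Fasn: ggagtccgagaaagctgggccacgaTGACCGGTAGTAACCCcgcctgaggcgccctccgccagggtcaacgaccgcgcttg

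Hmgcs1: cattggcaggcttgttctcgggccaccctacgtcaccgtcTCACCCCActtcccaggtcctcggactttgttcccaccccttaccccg

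The direct repeat was found in 3 of 32851 promoter windows of 250 bases (0.00913%), searched on both strands. Its letters outside the spacer are those of the known Srebf1 element, so the match in Srebf1 is not independent of the search. The sterol element core was found in 441 windows (1.34%). The CCAAT box, CCAAT, bound by the SREBP cofactor NF-Y, lay in 33.8% of windows, and the Sp1 box, GGGCGG, in 32.7%. Both occurred in the printed windows of Srebf1 and Srebf2. The E-box CACGTG, found in 6.02% of windows, occurred before 1 start each of Mlxipl and Scap. Of the regulators, Insig2 had windows at 3 starts, with 3 CCAAT boxes at the first and 1 Sp1 box at each of the others. Matches of different motifs overlapped at 0 bases in the windows of the 5 regulators. A match describes the letters and is no evidence of binding in these livers.

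The 4 arrays were alike in scale, with median intensities from 267 to 305. Mouse 1 stood apart in some measures, with the lowest log2 ratio of 3-prime to 5-prime signal for the Gapdh control probe sets (1.67, against 1.94 to 2.03) and the highest 18S ribosomal RNA signal (9.95, against 8.75 to 8.98). Skeletal muscle markers there summed to 1145 units over 13 genes, against 7031.5 to 10099 in mice 2 to 4, with 7 of 13 genes under 64 units in mouse 1 and 1 of 13 in each other mouse. Exocrine pancreas markers summed to 7569 in mouse 2 and to 2081 to 3296.5 in the others over 11 genes. Hepatocyte markers, 9 genes including albumin, summed to 384873 to 427532, so the tissue read as liver in every mouse, and 0 of the 9 differed by 2-fold or more. No marker was listed at an intensity of 0. In whole liver, fewer cells of a type and less RNA per cell cannot be told apart.

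Srebf1 mRNA was high in mouse 3 and lower in the other mice. Srebf1 had only 1 probe set, 1426690_a_at, so its order of the mice could not be compared with that of another. This probe set read 2985, 4116, 11089 and 3224.5 units in mice 1 to 4. Mouse 3 thus stood 3.25-fold above the geometric mean of the other 3, and mouse 2 was next, 1.43 log2 below mouse 3. The log2 level was 12.16 ± 0.87 (SD, n = 4), with highest and lowest 3.71-fold apart. Among the 1000 probe sets nearest in mean level, 99.9% had a smaller difference between highest and lowest mouse, where the median was 0.35 log2 against 1.89 for Srebf1. Leaving out mouse 3 brought the difference to 0.46 log2, and leaving out any other mouse kept it at 1.78 to 1.89. The files give no probe positions, so transcripts of the SREBP-1a and SREBP-1c starts cannot be told apart. In mouse 3 the summed macrophage markers (45932 over 11 genes) were the highest of the 4 mice (36764 to 44730 in the others). Of these genes, 11 of 11 were higher there than the mean of the others (58.6% of all probe sets). The summed adipocyte markers (1427 over 6 genes) were the lowest in mouse 3 (2203 to 2555 in the others). The adipocyte genes were not of 1 direction. Adipoq and Retn, 2 of 6, were higher in mouse 3 than the mean of the others (58.6% of all probe sets). Plin4 weighed on the sum, at 496 units in mouse 3 against 1128.5 to 1339. Bile duct markers summed to 17731 in mouse 3 over 8 genes and to 12843 to 13755 in the others, with 7 of 8 genes higher in mouse 3 (58.6% of all probe sets). Krt8 and Krt18, at 9148 and 7337 units in mouse 3, made up most of that sum. Krt19 read 341 units in both mouse 2 and mouse 3, and Krt7 was lowest in mouse 3. Stellate cell markers summed to 18437.5 in mouse 3 over 10 genes and to 15957 to 17876 in the others, with 7 of 10 higher (58.6% of all probe sets). Hepatocyte markers summed to 384873 in mouse 3 over 9 genes and to 389769 to 427532 in the others, with 1 of 9 higher. The part of these in the Srebf1 level was not tested.

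**Figure D1:**
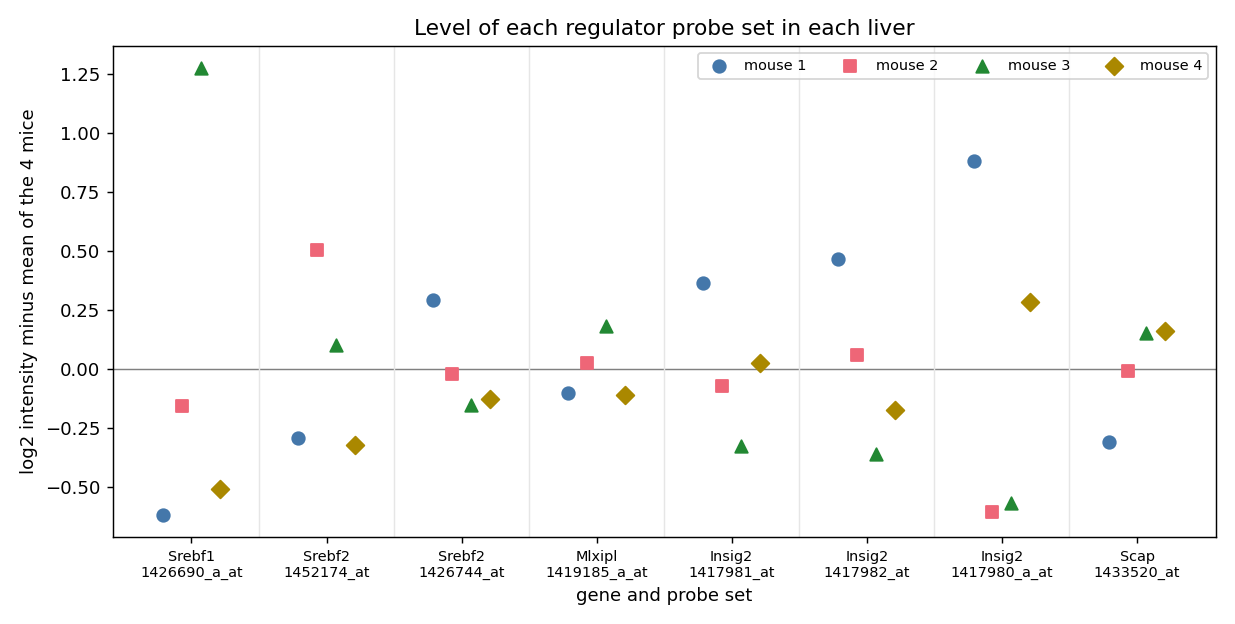
Points give the log2 intensity of each of the 8 regulator probe sets in each of 4 mice, minus the mean of that probe set over the 4 mice, with the gene and probe set on the x axis. Srebf1 is set apart by mouse 3, at 1.70 log2 above the mean of the other mice, while all 3 Insig2 probe sets are highest in mouse 1 and both Srebf2 probe sets have different orders.

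Srebf2, the sterol-responsive SREBP gene, gave different orders of the mice on its 2 probe sets. Probe set 1452174_at read 558, 968, 734 and 546 units in mice 1 to 4, a log2 level of 9.41 ± 0.39 (SD, n = 4). Probe set 1426744_at read 475, 382, 348 and 355 units, a log2 level of 8.59 ± 0.21 (SD, n = 4). The first was highest in mouse 2 and 1.77-fold above the lowest, mouse 4, though with array medians set equal the lowest was mouse 1. The second was highest in mouse 1 and 1.37-fold above the lowest, mouse 3. Without mouse 2 the difference on the first was 0.43 log2, and without mouse 1 that on the second was 0.13. Both probe sets are annotated to the same transcript record. Such disagreement was common: of 1934 genes with exactly 2 probe sets among the 75% of highest mean level, 63.7% had different highest mice on the 2. A common order of the mice for Srebf2 mRNA was therefore not established.

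Mlxipl, the ChREBP gene, was nearly level between the mice. Its probe set, 1419185_a_at, read 4193, 4580, 5108.5 and 4166 units in mice 1 to 4, a log2 level of 12.13 ± 0.14 (SD, n = 4). The highest, mouse 3, was 1.23-fold above the lowest, mouse 4. The difference of 0.29 log2 was larger than that of 37.1% of the 1000 probe sets nearest in level. It was 0.15 log2, with mouse 1 the lowest, once the array medians were set equal, and without mouse 3 it was 0.14.

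Insig2, whose protein retains the Scap-SREBP complex, was highest in mouse 1 and low in mouse 3 on each of its 3 probe sets. Probe set 1417980_a_at read 3989, 1422, 1459 and 2632 units in mice 1 to 4. Mouse 1 stood 2.27-fold above the mean of the others there, and the levels of mice 2 and 3 were close, at 10.47 and 10.51 log2. Probe set 1417981_at read 12680, 9373, 7860 and 10015, and probe set 1417982_at read 13030, 9836, 7357 and 8370. On these the highest mouse was 1.61-fold and 1.77-fold above the lowest, mouse 3, against 2.81-fold above mouse 2 on the first. The log2 SDs were 0.72, 0.29 and 0.36 (n = 4) in the same order.

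The 3 Insig2 probe sets agreed on the highest mouse, which was the case for 15.6% of 652 genes with exactly 3 probe sets among the 75% of highest mean level. For 3.37% of these genes the shared highest mouse was mouse 1. The probe sets share RNA and array, so their agreement is not 3 independent measurements of the animal. The profiles of 1417981_at and 1417982_at differed by a root mean square of 0.13 log2, and each differed from 1417980_a_at by 0.41 and 0.47. The differences between mice exceeded those of 99.2%, 90.3% and 94.2% of the 1000 probe sets nearest in level. They were 1.49, 0.69 and 0.82 log2, and without mouse 1 they were 0.89, 0.35 and 0.42. Mouse 1 is also the mouse with the lowest Gapdh ratio, the highest 18S signal and the lowest muscle marker sum, and the part of these in the Insig2 level was not tested.

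Scap, the escort protein, was lowest in mouse 1 and close in the others. Its probe set, 1433520_at, read 2039, 2516, 2813 and 2824 units in mice 1 to 4, a log2 level of 11.30 ± 0.22 (SD, n = 4). The highest and lowest were 1.38-fold apart, a larger difference than in 65.5% of probe sets of like level. Without mouse 1, the difference was 0.17 log2. Mice 3 and 4 could not be ordered, since they differed by 0.0055 log2 and changed places after quantile normalization.

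Side by side, the 8 probe sets did not share an order of the mice. Mouse 1 was the highest on 4 of 8, among them all those of Insig2, where 19.7% of all probe sets were highest in mouse 1. Mouse 3 was the highest on 2 of 8 (32.3% of all), and mice 2 and 4 on 1 each (29.5% and 18.5%). The lowest mouse was mouse 1 on 2 of 8 (27% of all), mouse 2 on 1 (20.7%), mouse 3 on 3 (20.8%) and mouse 4 on 2 (31.6%). A difference of at least 2-fold was seen on 2 of 8, Srebf1 and 1417980_a_at of Insig2, against 32.4% of all probe sets and 16.7% of the 75% with highest mean level, where all 8 lay. Srebf1 and Insig2 pointed opposite ways in the outer mice: mouse 1 was the lowest for Srebf1 and the highest for Insig2, and mouse 3 the highest for Srebf1 and the lowest for Insig2 on 2 of its 3 probe sets. The highest mouse was the same after quantile normalization for 7 of 8 probe sets, all but Scap, and with equal array medians for 8 of 8.

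**Figure D2:**
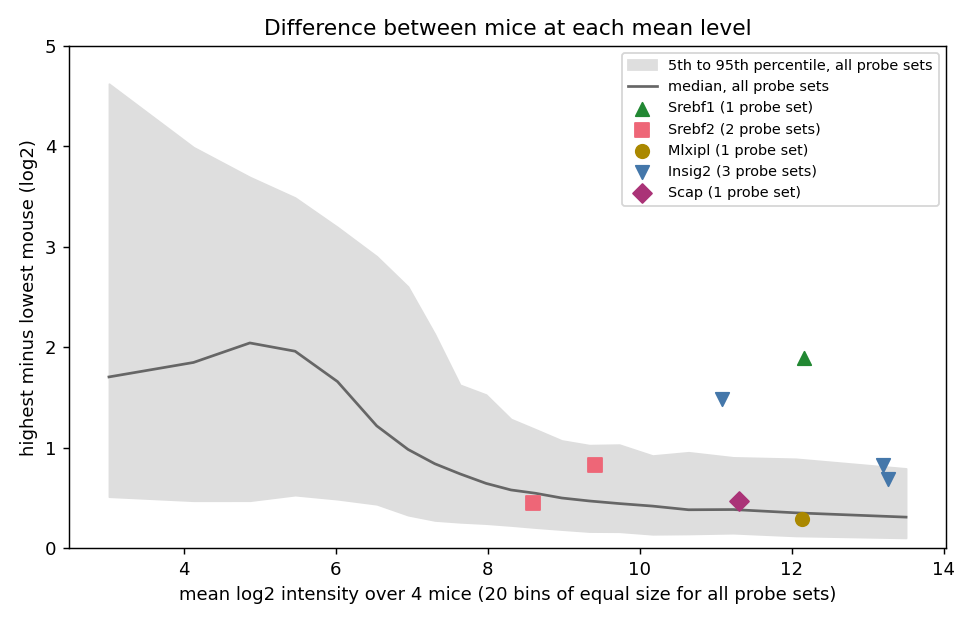
The x axis is the mean log2 intensity of a probe set over 4 mice and the y axis its highest minus lowest mouse in log2. The grey line and band are the median and the 5th to 95th percentile of all probe sets in 20 bins of level, and symbols are the 8 regulator probe sets. Srebf1 at 1.89 and Insig2 1417980_a_at at 1.49 lie well above the band, whereas Mlxipl at 0.29 lies below the median.

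The arrays also measured the genes these regulators act on. Each gene is given by its probe set of highest mean level, and each mouse is described by how far its log2 levels lay from the average of the remaining 3, as the median over a list. A test of excess spread between mice set the variance of each probe set against a prior variance from limma. With Benjamini-Hochberg adjustment over all probe sets, this test called 0 of 22626 probe sets (0%), with 839 at an unadjusted p under 0.05 (3.71%). When only the 75% of highest mean level were tested it called 6. No list gene below passed the test over all probe sets, and their values are descriptive.

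Sterol targets of the SREBP-2 type, mostly enzymes of cholesterol synthesis, were higher in mice 2 and 3 and lower in mice 1 and 4. The median was 0.62 log2 (1.54-fold) above the others in mouse 3, with 18 of 18 genes higher, where 58.6% of all probe sets were higher and their median was 0.088. In mouse 2 it was 0.45, with 16 of 18 higher (57.2% of all, median 0.062). In mouse 1 the median was -0.47, with 1 of 18 higher (45.6% of all, median -0.035), and in mouse 4 it was -0.53, with 0 of 18 higher (42.4% of all, median -0.067). An unadjusted p under 0.05 was found for 13 of 18 (3.71% of all probe sets). Between mice, 9 of 18 differed by at least 2-fold, against 32.4% of all probe sets. Among the 75% of probe sets with highest mean level, that share was 16.7%. Without mouse 3, 5 of 18 sterol genes differed by at least 2-fold, and no share of all probe sets is given for that setting.

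The medians of mice 1 and 4 were close, and with equal array medians they were -0.40 and -0.39, so that their order turned. Srebf1 and the Srebf2 probe set 1452174_at were both higher in mice 2 and 3 than in mice 1 and 4, as the list medians were, with mouse 3 highest for Srebf1 and mouse 2 for Srebf2. The Srebf2 probe set 1426744_at had its lowest values in mice 3 and 4. Insig2 lay below the mean of the others in mouse 3 on all 3 probe sets. The widest genes were Mvk, mevalonate kinase, with a 6.00-fold difference between mice, Dhcr7, the last enzyme of the pathway, with 3.79-fold, and Sqle, squalene epoxidase, with 3.63-fold. All 3 were lowest in mouse 1, but the other probe set of Mvk had neither the same highest nor the same lowest mouse. The Mvk signal in mouse 1 was low, at 87 units. Ebp, a sterol isomerase, was the narrowest, at 1.17-fold. Hmgcs1, named for its printed sequence and not by its spread, read 13.63, 14.34, 14.65 and 13.79 log2 on its leading probe set, and mouse 3 was the highest on all 4 of its probe sets.

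Leaving out a mouse moved these medians and kept their signs. Without mouse 3, mouse 1 was at -0.26, mouse 2 at 0.74 and mouse 4 at -0.31. Without mouse 4, mouse 1 was at -0.76 and mouse 2 at 0.26. Over all probe sets 45.6%, 57.2%, 58.6% and 42.4% were higher in mice 1 to 4. Exocrine pancreas markers were higher in mouse 2 for 11 of 11 genes, and muscle markers were higher in mouse 1 for 0 of 13. Bile duct markers had medians of -0.61, 0.55, 0.56 and 0.020 in mice 1 to 4, with 0, 7, 7 and 4 of 8 genes higher, and thus were also low in mouse 1 and high in mice 2 and 3. The part of these in the sterol target values was not tested. Of the 14 listed sterol genes with a promoter window, 14 held a CCAAT box in at least 1 window, against 37.5% of 27025 genes, and 13 held an Sp1 box, against 35.4%. The 8-letter sterol element core was found in 1 of them, Hmgcs1.

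**Figure D3:**
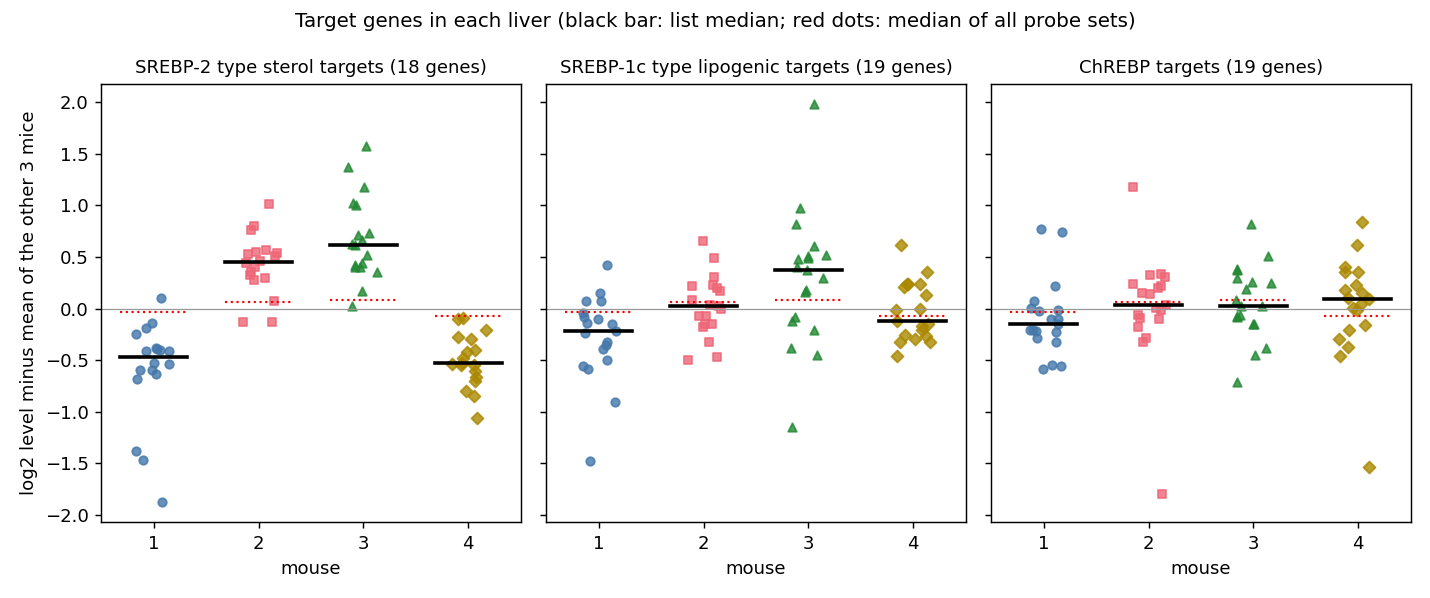
Each point is a gene of a list, with the log2 distance of a mouse from the average of the remaining 3 on the y axis and the mouse on the x axis. The plot covers the sterol, lipogenic and ChREBP lists. Black bars are list medians and red dotted lines the median of all probe sets. The 18 sterol targets lie above 0 in mouse 3 and below 0 in mouse 4, whereas the 19 ChREBP targets have medians between -0.15 and 0.097.

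Lipogenic targets of the SREBP-1c type were shifted most in mouse 3, the mouse with high Srebf1, but unevenly. The median there was 0.37 log2 (1.30-fold) above the others, against 0.088 over all probe sets, and 0.24 without mouse 1. There 13 of 19 genes were higher, not far from the 58.6% of all probe sets. It was -0.22 in mouse 1 (4 of 19 higher, 45.6% of all). Mouse 2 lay at 0.027 (10 of 19, 57.2% of all) and mouse 4 at -0.12 (7 of 19, 42.4% of all), and with equal array medians both turned direction, to -0.066 and 0.024. The value of mouse 4 was -0.0022 without mouse 3 and -0.18 without mouse 1, and leaving out mice 1, 3 and 4 in turn put mouse 2 at -0.059, 0.18 and 0.0035. In mouse 3 the summed macrophage, bile duct and stellate markers were the highest. The summed adipocyte and hepatocyte markers were the lowest there, with the limits from single genes given above. The part of these markers was not tested.

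Among single lipogenic genes, Aacs, a cytosolic ketone body ligase, had the widest difference, 6.06-fold, with the highest level in mouse 3, which was also the highest on 1 of its 2 other probe sets. Fasn, whose sequence is printed above and which its spread did not pick in this list, read 11.13, 11.57, 12.16 and 11.32 log2 in mice 1 to 4. Its highest mouse was thus that of Srebf1, at 2.04-fold above the lowest. Mouse 3 was the highest for 10 of 19 genes (32.3% of all probe sets). It was the lowest for 5 of 19 (20.8% of all), which were Scd1, Fads2, Me1, Elovl5 and Lpin1. The other probe sets of Fads2 and Me1 had other lowest mice. Thrsp, a lipogenic protein known as Spot 14, was highest in mouse 2 and differed by 2.25-fold. Its other probe set had another highest mouse and the same lowest mouse, mouse 1. Lpin1, a phosphatidate phosphatase and coactivator, ran against Srebf1, with 11.74 in mouse 3 against 12.92, 12.97 and 12.79 in mice 1, 2 and 4. Its other probe set shared both the highest and the lowest mouse. Elovl5, a fatty acid elongase, was the narrowest, at 1.14-fold. An unadjusted p under 0.05 was found for 5 of 19 genes (3.71% of all probe sets). A difference of at least 2-fold was seen in 5 of 19 genes (32.4% of all probe sets, 16.7% of the 75% with highest mean level), and in 2 of 19 without mouse 1 or without mouse 3.

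ChREBP targets had list medians near 0, and Mlxipl itself varied little. Their median was -0.15 in mouse 1 (5 of 19 higher). Mice 2, 3 and 4 lay at 0.035, 0.026 and 0.097, with 11, 11 and 12 of 19 genes higher. Over all probe sets 45.6%, 57.2%, 58.6% and 42.4% were higher in mice 1 to 4, so the counts of mice 2 and 3 were at the background. With equal array medians, mice 2 and 3 changed sign, to -0.057 and -0.090, and mouse 4 moved to 0.24. Without mouse 1, mice 2 and 3 were at -0.057 and -0.058. The list shares 5 genes with the lipogenic list, 26.3% of each, Fasn among them. Fgf21, a fasting hormone, and Rgs16, a signalling regulator, differed by 3.93-fold and 4.10-fold at mean signals of 6.58 and 6.44 log2, near the lower bound of the 75% of highest level, 6.30. The 2 other probe sets of Rgs16 shared neither its highest nor its lowest mouse. Fasn was the next widest, and Pygl, liver glycogen phosphorylase, the narrowest at 1.11-fold. An unadjusted p under 0.05 was found for 1 of 19 (3.71% of all probe sets).

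Of the ChREBP partners, 12 genes were measured, and 0 had an unadjusted p under 0.05 (3.71% of all probe sets). Mlx, named as the obligate partner and chosen after its values were seen, read 9.66, 9.38, 9.48 and 9.58 log2 in mice 1 to 4 on 1 probe set, 1418437_a_at. On its other, 1425930_a_at, it read 8.05, 8.49, 8.92 and 8.42, so the highest mouse was mouse 1 on the first and mouse 3 on the second. Max, a dimerization partner in the related Myc network, read 5.70 in mouse 3 against 7.26 to 7.60 in the others, a 3.72-fold difference. Its signal in mouse 3 was low, at 52 units. Mnt, a Max-binding repressor, differed by 1.52-fold and was highest in mouse 1, but its other probe set had another highest mouse. Thrb, a thyroid hormone receptor, differed by 1.43-fold and was lowest in mouse 4. Hnf4a, a hepatocyte transcription factor that acts with ChREBP, was the narrowest of the 12, at 14.25 ± 0.046 (SD, n = 4).

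Upstream regulators of Srebf1 had a list median near 0 in mouse 3. Of 25 measured genes, 14 were higher there (58.6% of all probe sets), with a median of 0.023. An unadjusted p under 0.05 was found for 2 of 25 (3.71% of all probe sets). Nr1h3, which encodes LXR-alpha and was named after its values were seen, read 9.55, 9.80, 10.06 and 9.54 log2 in mice 1 to 4, highest in mouse 3 by 0.26 over the next. Onecut1, a liver transcription factor, differed by 2.72-fold, highest in mouse 3 and lowest in mouse 1, and its other probe set had the same extremes. Bhlhe41, a repressor in the clock, was highest in mouse 1, at 7.33 against 5.89 to 6.26, and lowest in mouse 3. Its mean signal of 6.43 log2 was near the lower bound of 6.30. Its difference between mice was 1.43 log2, where probe sets of that level had a median of 1.22. Bhlhe40, its close relative, was the narrowest of the list, at 11.98 ± 0.075 (SD, n = 4). Lpin1, also in this list, is given above.

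LXR targets other than Srebf1 lay near the background in mouse 3. Their median there was 0.15, against 0.088 over all probe sets, with 9 of 12 genes higher, against 58.6%. Mice 1, 2 and 4 lay at -0.19, -0.088 and 0.10, with 2, 5 and 6 of 12 higher (45.6%, 57.2% and 42.4% of all). The 12 include Abca1, the gene of the transgene, whose part in the Abca1 signal cannot be told here, and Nr1h3 itself. In mouse 3 these lay 0.14 and 0.43 log2 above the mean of the others. Cyp7a1, which starts the classic route from cholesterol to bile acids, was highest in mouse 3 and differed by 2.55-fold, and its other probe set had the same extremes. Abcg5, a sterol exporter, was also highest in mouse 3, with a 1.49-fold difference, while Lpl, lipoprotein lipase, differed by 1.65-fold and was lowest in mouse 1. Apoe was the narrowest of the list, at 15.86 ± 0.10 (SD, n = 4).

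The rest of the SREBP machinery varied about as much as other probe sets. Of 19 measured genes of transport, cleavage and degradation, 0 had an unadjusted p under 0.05, against 3.71% of all probe sets. The median difference between highest and lowest mouse was 0.39 log2, where bins of all probe sets at mean levels of 10.17 to 12.06 log2 had medians of 0.35 to 0.42. Medians per mouse lay between -0.055 and 0.053. Ufd1, of the degradation machinery of the endoplasmic reticulum, differed by 2.03-fold and was highest in mouse 1. Sec31a, a coat protein of the vesicles that leave the endoplasmic reticulum, differed by 1.78-fold and was highest in mouse 3. Erlin1, which binds cholesterol and the Scap-Insig complex, differed by 1.77-fold and was also highest in mouse 3. Sec24b, another coat protein, was the narrowest, at 9.19 ± 0.074 (SD, n = 4). The other probe sets of Ufd1 and Erlin1 had other highest mice.

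Probe sets most like Srebf1 over the 4 mice were sought by the root mean square difference of centred log2 levels, over 15516 annotated probe sets among the 75% of highest mean level. The nearest were those of Knop1 (0.081), Rbbp4 (0.12), Lce1b (0.14), Ddr1 (0.16) and Smarcb1 (0.17). Knop1 read 7.55, 7.98, 9.29 and 7.74 log2 in mice 1 to 4, and its other probe set lay 1.16 from Srebf1. The other probe sets of Rbbp4 lay at least 0.50 away and that of Smarcb1 0.61. The nearest other probe set of Ddr1 lay 0.24 away and the farthest 1.22. The named Ddr1 probe set had a mean signal of 6.36 log2, near the lower bound of 6.30. Lce1b had 1 probe set.

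For Insig2 probe set 1417980_a_at, over 15514 probe sets, the nearest were Siglec1 (0.054), Pfdn1 (0.12), Cpt1a (0.12), Asb13 (0.13) and Stat3 (0.15). Cpt1a, the entry enzyme of mitochondrial fatty acid oxidation, read 10.01, 8.62, 8.89 and 9.49 log2 in mice 1 to 4, and its 2 other probe sets were also highest in mouse 1, at 0.41 and 0.53 from Insig2. Those of Siglec1 and Stat3 were highest in other mice, and 1 of the 2 others of Asb13 was highest in mouse 1. The named Siglec1 probe set had a mean signal of 6.39 log2, near the lower bound of 6.30. Each likeness rests on 4 mice and is a description.

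**Figure D4:**
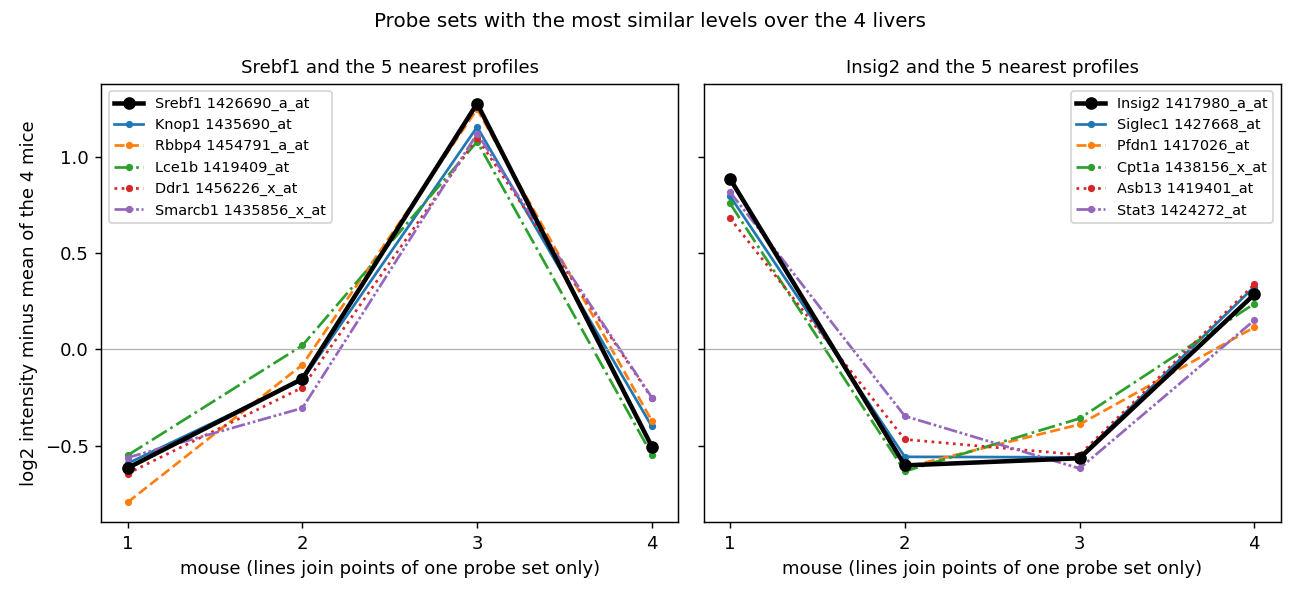
The y axis is the log2 intensity minus the mean of the 4 mice and the x axis the mouse. Black lines are Srebf1 and Insig2 1417980_a_at, and thinner lines the 5 nearest probe sets of each, at root mean square differences of 0.081 to 0.17 and 0.054 to 0.15 log2. Lines join the points of 1 probe set and show no order between mice.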

How the data were processed

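Liver RNA was amplified with RiboAmp from 2 ug of total RNA, per the labels, which favours 3-prime sequence. The authors deposited linear intensities, a single signal for a probe set on an array. Per the submitters' processing notes the tool was RMA, with no version, but the deposited intensities are linear, reach down to 0.1 and have a trimmed mean of 1000 on every array. How background was treated is unknown here. The number of arrays limits the precision.

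Log2 of each intensity was used, without pseudocount or rescaling, and 64 control probe sets were left out. Of the rest, 20380 had 1 gene symbol, 691 several and 1555 none, and lookup of Entrez identifiers in RefSeq changed 0 symbols. The probe set of highest mean level stood for a gene in lists. With 1 group, the test across genes set the variance over 4 mice against a robust prior that follows mean level, from limma 3.58.1 (R 4.3.3). It used the upper-tail F, Benjamini-Hochberg adjustment and a threshold of 0.05, and was tested on simulated data. Members and lists were chosen with earlier results of these data known. In each list the 3 widest genes and the narrowest, among the 75% of probe sets with highest mean level, are named, and for members differing by 1 log2 or more the 5 nearest profiles. Alternatives were quantile normalization, equal medians, a floor of 64 units, probe set means, other priors and leaving out each mouse. Promoter motifs were searched in RefSeq windows.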

Additional observations from a re-analysis of the deposited data

Results flagged for a closer look

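Of 48 named probe sets, 3 had a mouse far from the other 3, by the gap to its nearest neighbour as a share of the whole range (above Dixon's critical value for 4 samples). The 8 regulator probe sets among the 48 were chosen with results known and are not judged by this measure. The others were named for their spread or likeness, so the usual rate of about 1 in 20 does not apply to them. Lpin1 was low in mouse 3, with a share of 0.852. Thrb was low in mouse 4, with a share of 0.934. Lpl was low in mouse 1, with a share of 0.850.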

How the results depend on the processing

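No paired analysis was possible because there is 1 group. The difference between highest and lowest mouse moved by more than the SD between mice for Mlxipl, to 0.15 with equal array medians, and for Insig2, to 0.99 with the mean of its probe sets. When each mouse was left out in turn it ran from 0.46 to 1.89 log2 for Srebf1, from 0.43 to 0.83 for Srebf2, from 0.14 to 0.29 for Mlxipl, from 0.35 to 0.69 for Insig2 and from 0.17 to 0.47 for Scap. The excess spread test called 6 probe sets when only the 75% of highest level were tested, and 0 under each other alternative. ChREBP target medians moved with equal array medians to -0.057, -0.090 and 0.24 in mice 2, 3 and 4, and with probe set means to 0.14 for mouse 2. Leaving out a mouse gave -0.057 to 0.11 for mouse 2 and -0.058 to 0.062 for mouse 3. The cause was not tested. Lipogenic target medians turned direction with equal array medians in mouse 2, to -0.066, and in mouse 4, to 0.024. Of 124 recomputed differences and medians, 111 moved by less than the spread they were held against and 13 by more. Array medians differed from their mean by -0.11 to 0.09 log2.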

Other observations

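Fasting and insulin are known to act on Srebf1 and Insig2, and 13 of 16 listed genes that respond to them were measured. Their median was 0.22 log2 above the others in mouse 2 (11 of 13 higher), -0.21 in mouse 3 (5 of 13), 0.085 in mouse 1 (8 of 13) and 0.043 in mouse 4 (9 of 13). Over all probe sets 45.6%, 57.2%, 58.6% and 42.4% were higher in mice 1 to 4. Without mouse 3 the median of mouse 1 was near 0 (1.73e-07) and that of mouse 4 was -0.070. Cyp4a14, a fatty acid hydroxylase, was the widest, with 4.89-fold between mouse 1, the highest, and mouse 3, the lowest, and Insig2 had the same highest and lowest mouse on 2 of its 3 probe sets. Pdk4, a kinase that restrains glucose oxidation, differed by 2.25-fold and was lowest in mouse 2, as was Fgf21. Irs2, an insulin receptor substrate, was the narrowest, at 7.51 ± 0.11 (SD, n = 4). In this list 0 genes passed the excess spread test after adjustment over all probe sets, and 1 of 13 had an unadjusted p under 0.05 (3.71% of all probe sets). Summed pancreas markers were highest in mouse 2, and their part was not tested.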
